A study of Mus musculus with 10 samples.

Results

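The Hoxc cluster was followed through the H3K27me3 peak lists of 5 mouse B-cell lymphoma lines. Its members are the 9 genes Hoxc4, Hoxc5, Hoxc6, Hoxc8, Hoxc9, Hoxc10, Hoxc11, Hoxc12 and Hoxc13, which were taken by symbol from the GENCODE annotation of mm9, out of 37273 genes on chromosomes 1 to 19, X and Y. All 9 were found, and all are protein-coding. The 37273 genes include every annotated type, noncoding genes among them, and shares of all genes are over all types. Each gene was given a window from 5 kb upstream of its transcription start site (TSS, the 5′ end of the annotated gene) to the gene's end, and the bases of that window lying in peaks were counted. The parental line is an Eμ-Myc, Cdkn2a-/- lymphoma line, grown in culture from a C57BL/6J mouse that carried a Myc transgene driven by the immunoglobulin heavy chain enhancer. R100, R500, R1000 and R4000 were derived from it by raising the dose of mafosfamide, an alkylating agent, to 100, 500, 1000 and 4000 nM over 34 days in all. All 5 lines share the Myc transgene, the loss of Cdkn2a and the strain, the 4 resistant lines descend from 1 parental line, and the chromatin was taken from cells grown without the drug. Per line there is 1 list of peak positions with no height, score or read count, so the depth is unknown, no spread between replicates can be given, no difference between lines was tested, and no level of the mark within a peak is known.

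Hoxc genes encode homeodomain transcription factors that give cells of the embryo their position along the body axis. They lie head to tail in the order in which they are used, with the anterior Hoxc4 at one end and the posterior Hoxc13 at the other. Polycomb repressive complex 2 (PRC2) places 3 methyl groups on lysine 27 of histone H3, and Hox clusters are textbook targets of it in cells that keep these genes silent. Hoxc8 and Hoxc9 act at thoracic levels, Hoxc10 and Hoxc11 at lumbar and hindlimb levels, and Hoxc13 in hair and nail.

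The cluster occupies chr15:102746534-102867274 (mm9), a span of 120741 bp in which all 9 genes are on the plus strand. Their windows join into 5 stretches with 102373 bp in all, since the windows of Hoxc10 and Hoxc9 share 455 bp, those of Hoxc8 and Hoxc6 share 1011 bp, those of Hoxc6 and Hoxc5 share 3067 bp and those of Hoxc5 and Hoxc4 share 3494 bp. Values for neighbouring genes are therefore not independent, and values for the cluster count each base once. The positions of peaks fall on a 50-bp grid, and each distinct peak was counted once although the R100 and R500 lists hold every peak 2 times.

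Some stretches of the cluster carried a peak in every line, and their sequences are shown as the invariant part of the pattern. Capitals mark CpG dinucleotides, the letters are the plus strand of mm9, and the coordinates name the printed bases. The longest stretch held by all 5 lists was 500 bp inside the Hoxc11 intron, 1493 bp downstream of the TSS, of which the first 300 bp are printed. The next lay between genes, 3227 bp upstream of the Hoxc10 TSS. The one after it lay 470 bp upstream of the Hoxc9 TSS, outside the 9 members but within the span of the transcript Gm20398.
Hoxc11 intron, chr15:102786351-102786650: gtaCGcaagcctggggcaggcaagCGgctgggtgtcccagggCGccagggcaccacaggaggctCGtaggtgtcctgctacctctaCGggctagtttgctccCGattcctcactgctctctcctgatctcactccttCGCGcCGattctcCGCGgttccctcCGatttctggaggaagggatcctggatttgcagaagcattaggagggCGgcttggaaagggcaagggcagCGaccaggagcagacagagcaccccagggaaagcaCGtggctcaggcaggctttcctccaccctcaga
Hoxc10 upstream, chr15:102793751-102794000: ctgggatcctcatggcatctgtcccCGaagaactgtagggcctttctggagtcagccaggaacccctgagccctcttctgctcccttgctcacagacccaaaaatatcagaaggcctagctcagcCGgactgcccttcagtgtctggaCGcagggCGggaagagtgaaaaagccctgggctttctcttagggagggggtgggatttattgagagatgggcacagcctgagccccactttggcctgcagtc
Hoxc9 upstream, chr15:102806201-102806400: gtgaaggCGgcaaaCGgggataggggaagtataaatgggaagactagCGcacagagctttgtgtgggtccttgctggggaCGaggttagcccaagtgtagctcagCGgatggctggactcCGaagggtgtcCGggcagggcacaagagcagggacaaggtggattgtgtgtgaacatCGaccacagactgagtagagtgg

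Other stretches were found in the R100 and R500 lists and in no other line. They are shown because this class made up the largest block of covered bases in the cluster. One lies in the first coding exon of Hoxc10, which Gm20398, a transcript on the same strand, overlaps in part. The other lies in an intron of Hoxc6.
Hoxc10 coding exon, chr15:102797701-102798000: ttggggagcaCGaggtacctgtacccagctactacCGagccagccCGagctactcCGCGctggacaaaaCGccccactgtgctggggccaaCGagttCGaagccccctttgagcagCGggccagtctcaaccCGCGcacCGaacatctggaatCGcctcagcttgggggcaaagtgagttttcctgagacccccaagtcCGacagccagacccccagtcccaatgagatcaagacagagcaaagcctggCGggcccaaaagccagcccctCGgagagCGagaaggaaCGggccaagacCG
Hoxc6 intron, chr15:102840801-102841100: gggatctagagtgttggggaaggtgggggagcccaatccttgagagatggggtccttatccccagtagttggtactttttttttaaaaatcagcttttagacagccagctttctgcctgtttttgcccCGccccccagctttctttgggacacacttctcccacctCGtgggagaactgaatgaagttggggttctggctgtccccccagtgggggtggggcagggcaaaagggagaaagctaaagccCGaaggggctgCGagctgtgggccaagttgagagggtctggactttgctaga
The Hoxc11 intron held 5.0 CpG per 100 bp, against 1.60 upstream of Hoxc10 and 4.0 upstream of Hoxc9. The exon found in R100 and R500 only held 6.33, and the Hoxc6 intron 1.33. Chromosome 15 as a whole held 0.866.

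Peaks covered more of the Hoxc cluster in R100 and R500 than in the other 3 lines. They covered 14624 bp of the windows in the parental line and 37741, 40530, 14100 and 9824 bp across R100, R500, R1000 and R4000, respectively. These lengths are 14.3, 36.9, 39.6, 13.8 and 9.60% of the windows. Against the parental line the covered length was 2.58 times as large in R100 and 2.77 times in R500, while R1000 had 0.964 and R4000 0.672 of it. R1000 thus lay next to the parental line, and its place just below it turned to just above it (1.04 and 1.07 times) when peaks within 1000 bp were joined or when only bases within 5 kb of a TSS were counted.

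**Figure D1:**
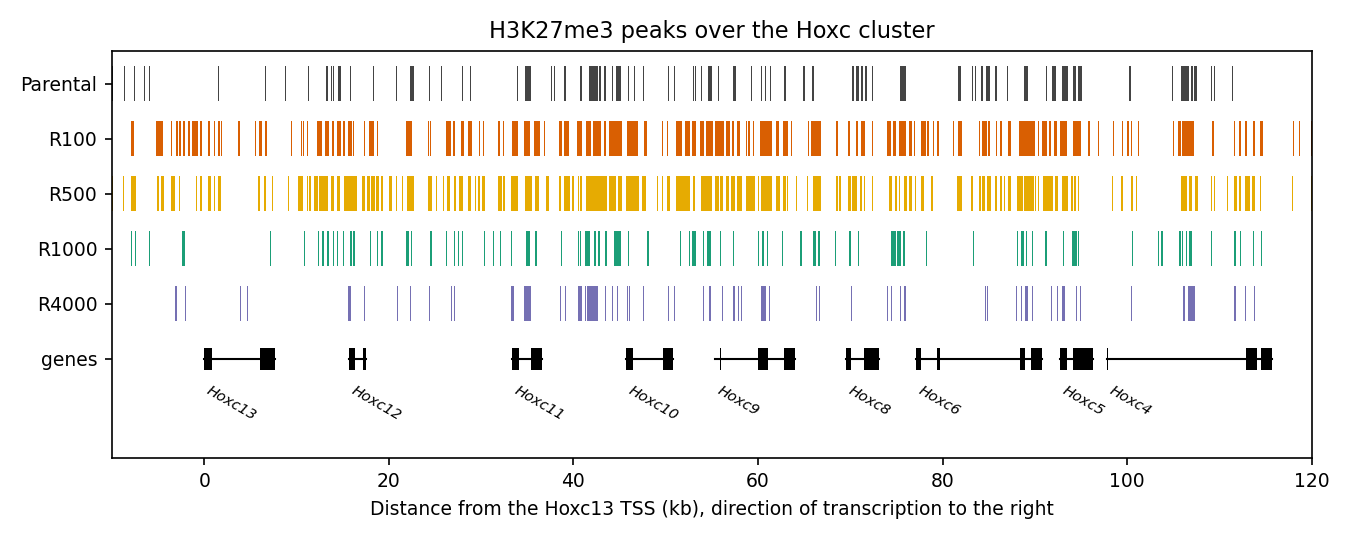
Peaks of each list over the Hoxc cluster. The x axis is the distance from the Hoxc13 TSS in kb, each block is 1 peak, and the bottom row gives the exons (boxes) of the 9 genes. R100 and R500 carry 109 and 117 peaks in the windows and the other lines between 63 and 84.

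The whole lists moved in the same directions and by similar factors. Their covered length was 1.63 Mb in the parental line, 5.04 Mb in R100, 4.53 Mb in R500, 1.61 Mb in R1000 and 1.07 Mb in R4000, which is 3.09, 2.78, 0.988 and 0.658 times the parental length for the resistant lines. The cluster held a similar share of each list, with 0.896% of the covered bases in the parental line and 0.749, 0.894, 0.874 and 0.915% in R100, R500, R1000 and R4000 in turn. These shares were less alike with peaks of at least 500 bp only, at 1.13% in the parental line and 0.599% in R1000, and with peaks within 1000 bp joined, at 0.832% in R100 and 1.33% in R4000. By number of peaks the share was lowest in R100 and R500. The parental list had 70 of 10778 peaks in the windows (0.649%, exact 95% binomial interval 0.507 to 0.820), R100 had 109 of 25180 (0.433%, 0.356 to 0.522), R500 had 117 of 21888 (0.535%, 0.442 to 0.640), R1000 had 84 of 9595 (0.875%, 0.699 to 1.08) and R4000 had 63 of 6820 (0.924%, 0.711 to 1.18). These intervals cover the counting of peaks only. How much of the change in the cluster goes with the length of the lists was not tested.

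Peaks of the cluster were also wider in R100 and R500. Their median width was 250 bp in both, while it was 125 bp in the parental line, and 100 bp for R1000 and R4000, whereas the median over the whole list was 100 bp in each line. Peaks of at least 500 bp numbered 26 of 109 in R100 (23.9%) and 23 of 117 in R500 (19.7%). They numbered 7 of 70 in the parental line, 5 of 84 in R1000 (5.95%) and 3 of 63 in R4000 (4.76%). Over the whole lists the share of such peaks was also higher in R100 (8.93%) and R500 (9.72%). It was 5.09% in the parental line, 6.51% in R1000 and 5.18% in R4000. Whether the cluster's peaks widened beyond those of the lists was not tested. Within the cluster, the widest peak of the parental, R500 and R4000 lists lay at the same place, between 5 and 2 kb upstream of Hoxc10. It was 1000 bp wide in the parental line, 2350 bp in R500 and 1200 bp in R4000. The widest in the cluster for R100, 1750 bp, ran across a coding exon of Hoxc6, and that of R1000, 750 bp, ended 577 bp before the Hoxc10 TSS.

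Every member carried H3K27me3 peaks in every line. Counting a gene as covered where peaks held at least 150 bp of its window (3 bins of 50 bp), 9 of 9 were covered in each of the 5 lists, whereas the same rule called 5.82% of all genes in the parental line and 15.8, 12.7, 6.64 and 5.40% in R100, R500, R1000 and R4000, respectively. With the 5 kb upstream alone, 8 members were covered in the parental line, 9 in R100, R500 and R1000, and 7 in R4000, against 3.04, 7.49, 6.70, 3.32 and 2.46% of all genes in the same order of lines. In a window reaching 2 kb to each side of the TSS, 7, 9, 9, 7 and 6 members were covered, against 4.05, 12.6, 9.88, 5.22 and 4.26% of all genes. With peaks of at least 500 bp only, 5, 9, 8, 5 and 3 members were covered, against 1.26, 4.91, 4.46, 1.68 and 1.11%.

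Of the anterior genes, Hoxc4 and Hoxc5 had the smallest ratios of R500 to the parental line among the members, 1.57 and 1.79, while Hoxc6 had 2.50. The windows of Hoxc4 and Hoxc5 share 3494 bp that count in both, and this order rests on them. In bases that belong to no neighbour, the parental line and R500 had 2000 and 4200 bp in Hoxc4 and 500 and 1250 bp in Hoxc5. Hoxc8 had 1300 and 2450 bp there, a smaller ratio than either. Hoxc4 (ENSMUSG00000075394.3, chr15:102849367-102867274), the longest member, had 3400 bp covered in the parental line and 5434, 5350, 2650 and 2000 bp across R100, R500, R1000 and R4000 in turn. These are 14.8, 23.7, 23.4, 11.6 and 8.73% of its window. Its ratio to the parental line was 1.60 in R100 and 0.588 in R4000. No peak lay within 2 kb of its TSS in the parental line or R1000, and the nearest parental peak was 2384 bp away.

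Hoxc5 (ENSMUSG00000022485.2, chr15:102844246-102847860) had the highest covered share of any member in the parental line, 27.3%, and in R100, 55.7%. Its covered lengths were 2350 bp in the parental list, followed by 4800 bp (R100), 4200 bp (R500), 1800 bp (R1000) and 1350 bp (R4000). Only 2054 bp of its window belong to no neighbour, and in these the covered length was 500, 1166, 1250, 300 and 150 bp in the same order of lines. Hoxc6 (ENSMUSG00000001661.4, chr15:102828688-102842312) had 2600 bp covered for the parental line and 7050, 6500, 2350 and 1400 bp for R100, R500, R1000 and R4000. In both genes R100 was highest and R4000 lowest.

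The thoracic genes differed from each other. Hoxc8 (ENSMUSG00000001657.6, chr15:102821053-102824698) had 1400 bp in the parental list, followed by 2550 bp (R100), 2550 bp (R500), 1400 bp (R1000) and 400 bp (R4000). It was the member with the lowest ratio in R4000, 0.286, and covered bases within the gene itself numbered 950 in the parental line against 100 in R4000. Hoxc9 (ENSMUSG00000036139.6, chr15:102806870-102815530) had 1931 bp for the parental line and 7250, 8081, 2250 and 1400 bp for R100, R500, R1000 and R4000. Peaks covered 53.1% of its window in R100 and 59.2% in R500, against 14.1% in the parental line. The ratio for R500 was thus 4.18 in Hoxc9 and 1.82 in Hoxc8, although the genes are neighbours.

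Hoxc10 (ENSMUSG00000022484.7, chr15:102797227-102802324) had the highest covered share of all members in R1000 and R4000. Its covered length was 2724 bp in the parental list, followed by 5074 bp (R100), 6200 bp (R500), 2600 bp (R1000) and 2224 bp (R4000), or 27, 50.2, 61.4, 25.7 and 22.0% of its window. In the parental line and R4000 most of this was upstream: of the 5 kb before its TSS 46.5% was covered in the parental line and 35.5% in R4000, against 7.85 and 8.83% of the gene itself.

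Of the posterior genes, Hoxc11 (ENSMUSG00000001656.3, chr15:102784858-102788139) had 850 bp for the parental line and 3000, 3700, 1100 and 1100 bp for R100, R500, R1000 and R4000. Its TSS base itself lay in a peak in each resistant line, while the nearest parental peak was 593 bp away. Hoxc12 (ENSMUSG00000050328.2, chr15:102767188-102769040), the shortest member, had 1050 bp in the parental list, followed by 2750 bp (R100), 4313 bp (R500), 1150 bp (R1000) and 450 bp (R4000). In R500 it had the highest share of all members, 62.9%, and there its gene body was covered to 68.2% against 5.40% in the parental line.

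Hoxc13 (ENSMUSG00000001655.6, chr15:102751534-102759245), the most posterior gene, stood apart in the parental line. Its covered length was 300 bp for the parental line and 3617, 2867, 500 and 700 bp for R100, R500, R1000 and R4000. The parental 300 bp came from 4 narrow peaks in the gene, none wider than 100 bp, and the 5 kb upstream held 0 bp. Upstream lengths in the resistant lines were 2117, 1567, 350 and 400 bp across R100, R500, R1000 and R4000, respectively. The ratio to the parental line was 12.1, 9.56, 1.67 and 2.33 in R100, R500, R1000 and R4000 in turn, the highest of the 9 members in each line, on a small parental base. Without Hoxc13, the ratio for the rest of the cluster was 2.38, 2.63, 0.949 and 0.637 in R100, R500, R1000 and R4000, respectively.

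**Figure D2:**
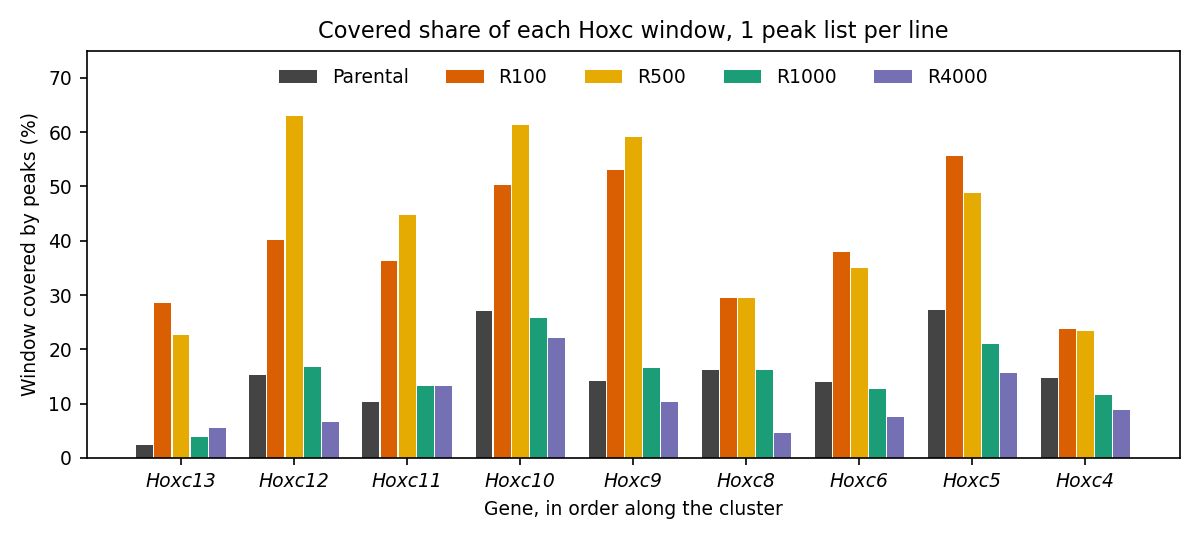
Share of each gene's window covered by peaks, in percent, with genes in order along the cluster and 1 bar per line. R100 and R500 stand above the other 3 lines in all 9 genes, and the parental bar of Hoxc13 is the lowest of its line at 2.36%.

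In the order of covered share, the parental line ran from Hoxc5 (27.3%) and Hoxc10 (27%) down to Hoxc11 (10.3%) and Hoxc13 (2.36%), with a median of 14.8% over the members. R500 ran from Hoxc12 (62.9%), Hoxc10 (61.4%) and Hoxc9 (59.2%) down to Hoxc4 (23.4%) and Hoxc13 (22.6%), with a median of 44.7%. R4000 ran from Hoxc10 (22.0%) and Hoxc5 (15.7%) down to Hoxc13 (5.51%) and Hoxc8 (4.63%), with a median of 8.73%. With 1 list per line, which neighbours in these orders differ beyond replicate spread cannot be given. Over all genes the mean covered share of a window was 0.276% for the parental list and 0.911, 0.827, 0.335 and 0.249% for R100, R500, R1000 and R4000.

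The change of each gene against the parental line was next set beside that of all genes. A gene entered where at least 150 bp of its window were covered in either list, and was called higher where it had at least 2 times the bases (with 50 bp, 1 bin, as the floor) and lower in the mirror case. Of the genes that entered, 64.1% in R100 and 55.7% in R500 did so only through the resistant line and so had to have more covered bases there, while all 9 members also passed in the parental line. For members called by this rule, the share is given over the genes that entered and over the 2170 that passed in the parental line. Genes called lower all passed in the parental line, and they numbered 172 in R100, 174 in R500 and 664 in R1000, of the 2170. In R100, 6 of 9 members were higher (all but Hoxc4, Hoxc8 and Hoxc10), against 85.5% of the genes that entered and 61.0% of those that passed in the parental line, and 0 were lower, against 2.84% of the genes that entered. In R500, 6 were higher (all but Hoxc4, Hoxc5 and Hoxc8), against 80.8 and 59.0%, and 0 were lower, against 3.56%. The median log2 ratio of the members was 1.39 in R100 and 1.32 in R500, and that of the genes that passed in the parental line was 1.26 and 1.19.

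In R1000, 0 members were higher and 0 lower, against 36.2 and 22.2% of the genes that entered. Of those genes, 27.4% entered only through R1000, unlike the members. The median log2 ratio was 0.00 for the members and -0.19 for the genes that passed in the parental line. In R4000, Hoxc13 was higher, against 27.2% of the genes that entered and 6.59% of those that passed in the parental line. Hoxc8 and Hoxc12 were lower there, against 39.5 and 51.6%, and the median was -0.77 for the members and -1.0 for the genes that passed in the parental line. From R500 to R1000, 8 of 9 members were lower (all but Hoxc8), against 76.0% of the genes that entered and 78.6% of those that passed in R500, and 0 were higher, against 3.09%. The medians were -1.47 for the members and -1.71 for the genes that passed in R500.

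Dividing covered bases by the covered length of the list left few members called. Hoxc13 alone was higher in R100 (30.0% of the genes that entered), R500 (32.8%) and R4000 (34.6%). Hoxc8 alone was lower in R4000 (28.4%), and Hoxc13 alone from R500 to R1000 (43.4%). Some of the genes that entered did so only through the line compared, unlike the members. The shares over genes that passed in the parental line or R500 were not computed on this scale. On this scale the ratio of the whole cluster to the parental line was 0.836 (R100), 0.998 (R500), 0.976 (R1000) and 1.02 (R4000), so the higher coverage of R100 and R500 and the lower coverage of R4000 did not remain.

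Within the cluster, lines shared some bases and not others. Of the windows' bases, 46119 bp (45.0%) lay in no list and 56254 bp (55.0%) in at least 1. Peaks of all 5 lines shared 2000 bp (1.95%), in 15 stretches with a median of 100 bp. Bases in R100 and R500 and in no other line made up 12717 bp (12.4%), in 94 stretches of at most 450 bp. Bases in R500 alone came to 9363 bp and in R100 alone to 6700 bp. Of the 14624 parental bases, 7350 bp were in neither R1000 nor R4000. R1000 or R4000 in turn held 12850 bp that the parental line did not, of which 9850 bp were in R100 or R500.

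R100 and R500 were the most alike pair over the cluster, with 52.4% of the bases covered in either found in both, against 34.4% over the whole lists. The parental line and R4000 shared 24.9% (17.6% over the lists), the parental line and R1000 19.1% (21.3%), and R1000 and R4000 18.9% (22.1%). Parental bases were found again to 72.3% in R100 and 71.8% in R500, but to 31.5% in R1000 and 33.3% in R4000. The values over the whole lists were 54.4, 57.4, 34.9 and 24.8%. R100, R500, R1000 and R4000 covered 36.9, 39.6, 13.8 and 9.60% of the windows, and a list that covers more can meet more parental bases by its length alone. How much of the overlap goes with this length was not tested. Although R1000 covered nearly the same length as the parental line, most parental bases were thus not in its list. The overlap that repeat lists of the same line would show is not known. Of the 70 parental peaks, 49 overlapped a peak of R100, 60 one of R500, 31 one of R1000 and 29 one of R4000 by at least 1 bp. These are 70.0, 85.7, 44.3 and 41.4% of them, against 42.0, 43.4, 27 and 19.6% of all parental peaks.

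**Figure D3:**
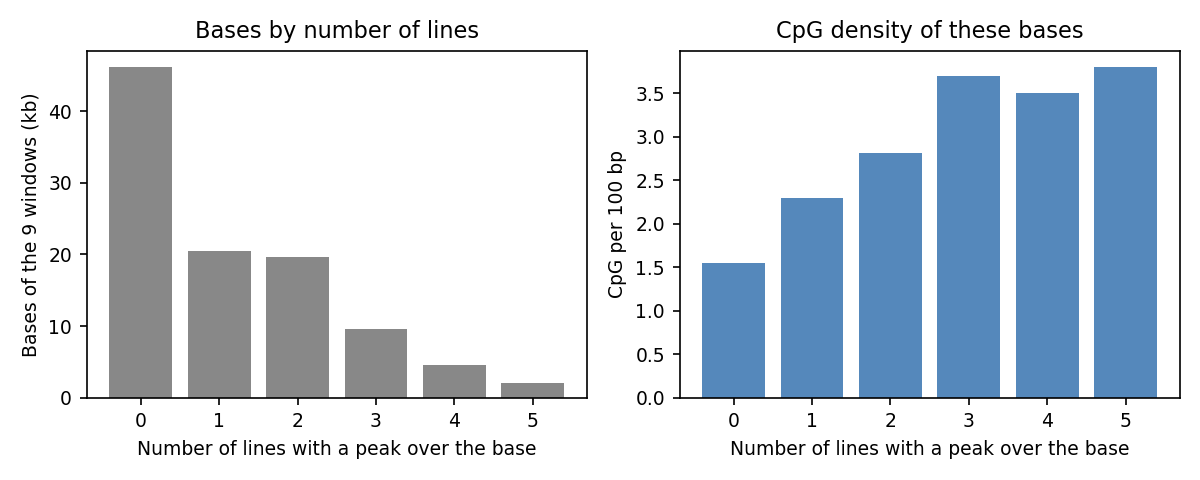
Bases of the 9 windows by the number of lines with a peak over them (left, in kb) and the CpG dinucleotides per 100 bp of those bases (right). Bases in no list are the largest class, and CpG density is 1.55 there and 3.80 where all 5 lists have a peak.

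CpG dinucleotides were denser in bases held by more lists, with 4 lists slightly below 3. The density was 1.55 per 100 bp in bases of no list, 2.30 for 1 list, 2.81 for 2, 3.70 for 3, 3.50 for 4 and 3.80 for all 5, and the GC content was 46.2% for no list and 58.1% for all 5. Bases in R100 and R500 only held 3.09 CpG per 100 bp. These are descriptions of 1 region whose bases are not independent, and the part of GC content in sequencing or peak calling was not tested.

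The position of the peaks relative to the genes also differed between lines. Coding exons of the 9 genes were covered to 20.3, 67.7, 68.2, 24.1 and 21.0% for the parental, R100, R500, R1000 and R4000 lists. Introns were covered to 13.8, 28.3, 32.7, 8.48 and 8.16%, and the window bases outside the 9 genes to 15.8, 43.1, 47.3, 19.9 and 10.2%. Part of the bases outside the 9 genes lies within Gm20398, a transcript that runs from Hoxc10 into Hoxc5. Untranslated exon parts were covered to 8.35, 31.2, 25.0, 8.76 and 6.29%. Coding exons were the most covered class in every line, and untranslated exon parts the least in the parental line, R500 and R4000. In R100 introns were the least covered class, and in R1000 introns were also below untranslated exon parts.

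Peaks were sparse just before the TSS in every list but R4000. The 2 kb before the TSS were covered to 16.7, 42.7, 40.5, 15.9 and 6.73% for the parental, R100, R500, R1000 and R4000 lists. In the 200 bp just before it, the covered share over the 9 genes was 0% for the parental list and 10.4, 19.8, 3.17 and 10.8% for R100, R500, R1000 and R4000. Between 400 and 600 bp after the TSS it was 16.0, 70.7, 74.1, 19.9 and 12.8%. Another rise in R100 and R500 lay upstream, where between 3200 and 3000 bp before the TSS R100 covered 90.0% and R500 78.0%, with bases in all 9 genes and in 8, against 18.9% in the parental line. R500 was highest between 3600 and 3400 bp before the TSS, at 82.3%, against 39.1% in the parental line. For Hoxc4 and Hoxc5 these bins lie within the neighbouring genes Hoxc5 and Hoxc6. The TSS base itself was in a peak in 0 genes of the parental line, 2 of R100, 2 of R500, 1 of R1000 and 2 of R4000. R4000 was lower than the parental line in the 2 kb before the TSS (6.73 against 16.7%) and closer to it in the 2 kb after (13.5 against 16.5%).

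**Figure D4:**
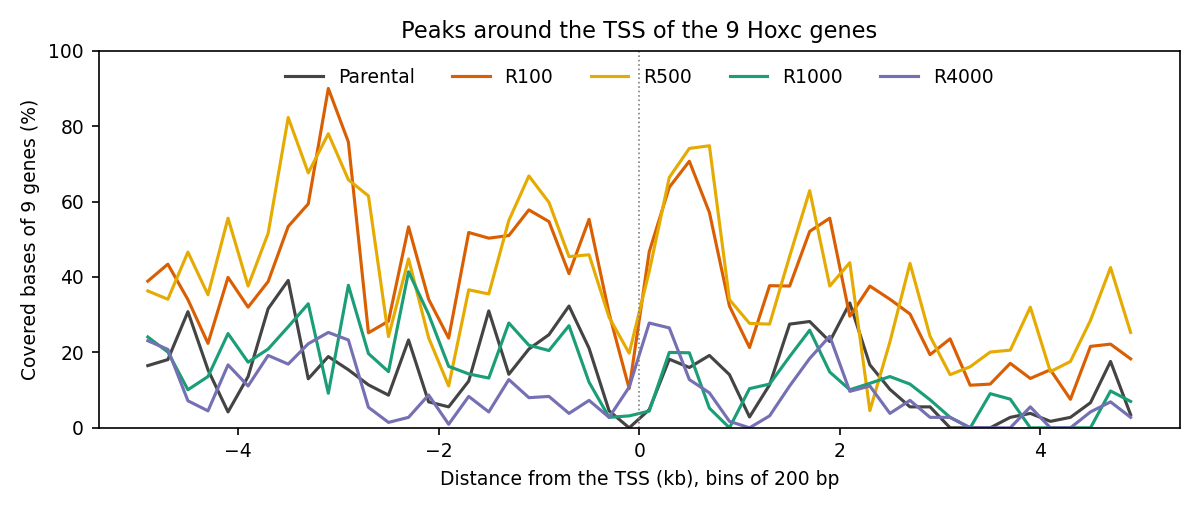
Covered bases of the 9 Hoxc genes, in percent, in bins of 200 bp from 5 kb before to 5 kb after the TSS (dotted line), with 1 curve per line. The parental curve is at 0% just before the TSS, and R100 and R500 rise to 70.7 and 74.1% between 400 and 600 bp after it.

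Transcripts inside the cluster that are not Hox genes followed in part. Gm16258, which RefSeq gives as a synonym of Hotair, the antisense long noncoding RNA known from this locus, had 300 bp of its 4359 bp covered in the parental line and 1000, 1300, 350 and 350 bp across R100, R500, R1000 and R4000 in turn. Mir196a-2, a miRNA gene between Hoxc10 and Hoxc9 whose product is known to target Hoxb8, lay whole, with its 110 bp, in peaks of R100 and R500 and in none of the other 3 lists. Its mature sequence from RefSeq is printed with the seed, bases 2 to 8, in capitals.
miR-196a-5p: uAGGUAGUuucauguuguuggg
Mir615, a miRNA gene within Hoxc5, had no peak base in any list.

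Peaks thinned out at the edges of the cluster. The span was covered to 13.5, 34.7, 39.1, 13.0 and 9.03% for the parental, R100, R500, R1000 and R4000 lists. In the 50 kb before it, on the Hoxc13 side, the shares were 2.20, 2.77, 3.67, 0.80 and 0.50%. In the 50 kb after it, on the Hoxc4 side, they were 1.90, 7.90, 7.90, 2.70 and 0.30%. R100 and R500 were also above the parental line farther away. Between 50 and 200 kb after the span they covered 5.53 and 5.23% against 1.70%, and between 50 and 200 kb before it 2.53 and 2.20% against 1.23%.

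Among the 4 Hox clusters, Hoxc lay between Hoxa and the other two. In the parental line the windows were covered to 29.7% in Hoxa (12 annotated entries, Hoxa3 under 2 identifiers), 14.3% in Hoxc, 3.03% in Hoxb and 1.09% in Hoxd. R500 covered 42.3% of Hoxa, 39.6% of Hoxc, 15.3% of Hoxb and 9.99% of Hoxd. The ratio of R500 to the parental line was 1.43 in Hoxa, 2.77 in Hoxc, 5.03 in Hoxb and 9.20 in Hoxd. The larger ratios rest on small parental lengths, 3000 bp in Hoxb and 1000 bp in Hoxd. The parental length is also the divisor of the ratio, so the order of the ratios is not a separate result. In R4000 the ratio was 0.733 in Hoxa, 0.672 in Hoxc, 1.13 in Hoxb and 0.40 in Hoxd. All 9 Hoxc genes were covered in each line, whereas Hoxa had 11 of 12 entries covered in the parental line and 10 in R4000, Hoxb 4 and 5 of 10, and Hoxd 5 and 1 of 9. With 1 list per line these differences between clusters were not tested.

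**Figure D5:**
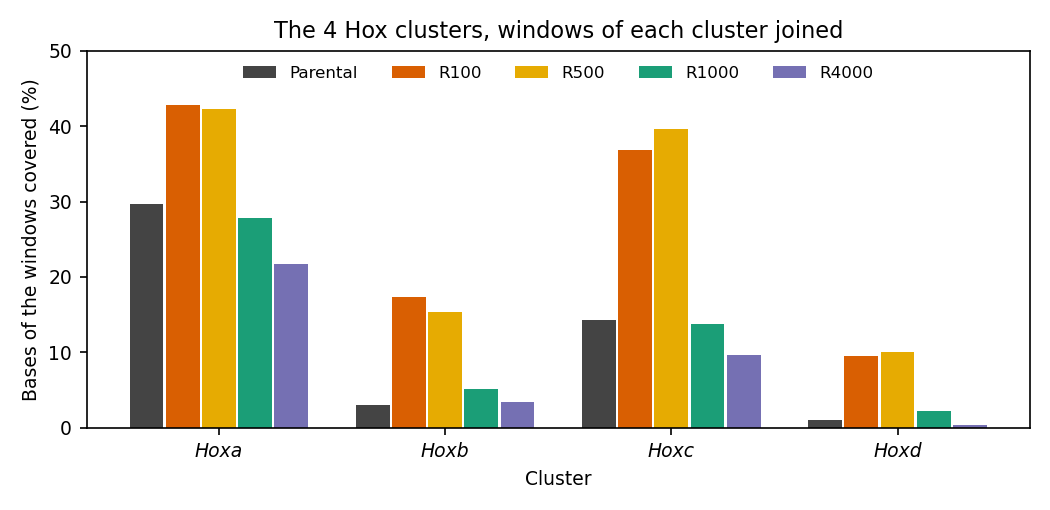
Bases of the windows covered by peaks, in percent, for the 4 Hox clusters with 1 bar per line. Hoxc is at 14.3% in the parental line and 39.6% in R500, with Hoxa above it and Hoxb and Hoxd below it in every line.

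Among protein-coding genes outside the Hox clusters, those with covered shares nearest to the mean of the 9 members were Rax, Prdm8, Dll1, Scarf2 and Pth2. The mean was 15.7, 39.4, 43.0, 15.3 and 10.5% in the order parental, R100, R500, R1000 and R4000. The measure was the Euclidean distance over the 5 lines, in percentage points. Rax, at 3.79, had 18.5, 37.6, 42.4, 16.9 and 10.1% of its window covered, and Pth2, at 7.60, had 11.5, 37.2, 38.9, 11.5 and 12.4%. Single members lay between 7.39 (Hoxc11) and 29.5 (Hoxc13) from their own mean.

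Genes known to act with or above the cluster were looked up by the same rule. It called 5.82% of all genes in the parental line and 15.8, 12.7, 6.64 and 5.40% in R100, R500, R1000 and R4000. Of 9 Hox cofactors of the Pbx, Meis and Pknox families, 2 were covered in the parental line and 4, 4, 1 and 2 in R100, R500, R1000 and R4000, respectively. Pbx3, covered in every line, had 2050, 3350, 3350, 2650 and 1150 bp. These are only 0.992, 1.62, 1.62, 1.28 and 0.556% of its long window of 206684 bp. Of the upstream regulators, Cdx2, a homeobox activator of Hox genes, had 1050 bp in the parental list, followed by 3350 bp (R100), 3700 bp (R500), 750 bp (R1000) and 450 bp (R4000), or 9.16, 29.2, 32.3, 6.54 and 3.92% of its window. Bmi1 and Cbx2, subunits of polycomb repressive complex 1, were also covered in every line, Cdx1 in R100 only and Cdx4 in none, and Kmt2a was not matched by symbol. Of the 11 genes for PRC2 and its partners, 0 were covered in the parental line and 2, 1, 0 and 1 in R100, R500, R1000 and R4000 in turn. Of the 3 demethylase genes, Kdm6b alone was covered, in each line.

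Markers of blood cell types were looked up by the same rule. The 10 B-cell genes had 0 covered in the parental line and 4, 4, 2 and 1 in R100, R500, R1000 and R4000, respectively. The rule called 5.82, 15.8, 12.7, 6.64 and 5.40% of all genes in the parental line, R100, R500, R1000 and R4000. Of 8 T-cell genes, 3, 4, 5, 2 and 1 were covered. Among them, Gata3 had 1800 bp in the parental line against 6100 bp in R500, while Cd8a and Lck had 0 bp in every line. None of the 6 myeloid and 3 erythroid genes was covered in any line. Peaks of a repressive mark give no RNA level, and in the parental line B-cell, myeloid and erythroid genes were all at 0 covered. These counts therefore do not check the cell type.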

How the data were processed

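H3K27me3 ChIP-seq lists of 5 lines were analysed. The 5 RRBS samples were not analysed here. Per the study's methods, the authors obtained reads of 50 bp and called peaks with a Poisson model, with input DNA as the control. The deposited values are positions in base pairs in 3 columns (chromosome, start, end). The submitters' processing notes name Bowtie and mm9. The study made biological replicates, but whether a list pools them, and the threshold of the lists, are not given in the sources used here. The minimum of 3 bins follows the study's rule for promoters, without its limit on p, which the lists do not carry.

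On 21 chromosomes all peaks lay within the lengths of NCBIM37 (mm9), whose GENCODE annotation gave the genes. Distinct peaks were counted, and covered bases were summed with Python 3.11.15 (numpy 2.4.6, scipy 1.17.1 for the intervals, matplotlib 3.10.9 for plots). The counting step was tested on simulated data, where 0 of 1000 windows differed from a base-by-base count. Sequences of the cluster were read from NCBIM37, and the miRNA from RefSeq.

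With 1 list per line no test was made, and ratios are descriptions. The binomial intervals cover counting only. All 9 members are named. Other named genes come from lists of Hox genes, neighbours within 200 kb, cofactors, regulators, PRC2, demethylases and cell type markers, with the 5 most alike genes. The members and lists were chosen with earlier results of these data known. The alternatives were peaks of at least 100 or 500 bp, peaks within 1000 bp joined, lists of equal number (the 6820 widest peaks), other windows, minimums and folds, and bases divided by the list's length. The whole span with its gaps, the cluster without Hoxc13, the ratio of the cluster per list length, and the share of all genes among those covered in the reference list, were added after seeing the data. Some items are not reported here.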

Additional observations from a re-analysis of the deposited data

Results flagged for a closer look

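The covered length of the Hoxc cluster moved in opposite directions in different resistant lines. Against the parental line it was 2.58 times as large in R100 and 2.77 times in R500, and 0.964 and 0.672 times in R1000 and R4000. Each line has 1 list, so the difference was not tested. The covered length of the whole lists moved in the same directions, by 3.09, 2.78, 0.988 and 0.658 times.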

How the results depend on the processing

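When covered bases were divided by the covered length of the list, the ratio of the cluster to the parental line fell to 0.836 in R100. It came close to 1 in R500 (0.998) and R4000 (1.02). The lists differ in length, and this alternative was added after seeing the data. Under the other 8 alternatives run on the ratio of the cluster, R100 and R500 stayed above 1 and R4000 below 1. With peaks of at least 500 bp only, the ratio was 4.32 in R100, 4.37 in R500 and 0.621 in R1000, and 5 members were covered in the parental line, 5 in R1000 and 3 in R4000 (1.26, 1.68 and 1.11% of all genes). The R1000 ratio of 0.964 became 1.04 with peaks within 1000 bp joined and 1.07 with only bases within 5 kb of a member's TSS counted, and the cause was not tested. With at least 10% of the window as the minimum, 4 members were covered in R4000 (0.606% of all genes). At a fold of 3, 3 members were higher in R100 (76.5% of the genes that entered), 0 were higher (22.2%) and 1 was lower (30.9%) in R4000, and 4 were lower from R500 to R1000 (61.5%). At a fold of 1.5, 1 was higher in R1000 (43.8%) and 5 were lower in R4000 (47.4%). The shares at these folds include genes that entered only through the line compared, unlike the members. Shares over genes that passed in the parental line or R500 were not computed at these folds. Per covered length of the list, 1 was higher in R100, 1 higher in R500, 1 lower in R4000 and 1 lower from R500 to R1000. Of 136 alternative values for the cluster and its counts, 114 stayed within their limits (1.5 times for counts and ratios) and 17 moved further. The other 5 were ratios that crossed 1, by however little. Of 315 values for single genes, 130 stayed within 1.5 times and 185 moved further, since these alternatives change the windows or the peaks themselves. R100 stayed above the parental line for all 9 members under the 7 alternatives for single genes. R500 did so too, except that Hoxc4 and Hoxc5 fell below it in 1 alternative each and Hoxc13 did not differ in 1. For R1000 the direction turned in at least 1 alternative for the 8 members that had one, and Hoxc8, at 1400 bp in both lists, was higher in 3 alternatives, lower in 3 and equal in 1. For R4000 it turned in 2 alternatives for Hoxc11, in 1 each for Hoxc4, Hoxc6, Hoxc10, Hoxc12 and Hoxc13, and in none for Hoxc5, Hoxc8 and Hoxc9. No paired analysis was possible because there is 1 list per line. The depth behind the lists is unknown, which limits every comparison of covered length between lines.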
